A study of Mus musculus with 10 samples.

Results

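Of the 42526 genes shared by the plate count tables, 7 are described here: Serpinb11, Slco4a1, Esm1, Slc9a9, Prn, Cpne7 and Mgll. They were selected on their plate counts in lymphatic endothelial cells (LECs), which were higher after deletion of the Tie receptors than in control plates, so those differences are a description, and no test of them is used as a result. All 7 were measured in the plates and 6 in the droplet libraries, whose feature list has no entry for Prn. The study asked how the receptors Tie1 and Tie2 (gene Tek) and their ligand angiopoietin 2 (Ang2) act in postnatal lymphatic vessels. LECs of mouse ear skin were sorted as CD31+ PDPN+ CD45- CD11b- Ter119- cells, 1 per well, on 8 plates, and their full-length transcripts were read by Smart-seq. CD31+ skin cells were measured in 2 droplet (10x) libraries that count unique molecular identifiers (UMIs).

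The plates carried 4 genotypes with 2 plates each. Tie1fl/fl littermates without Cre (Tie1 control plates) were set against Prox1CreERT2;Tie1fl/fl mice (Tie1-deleted plates), and Tie1fl/fl,Tie2fl/fl littermates without Cre (Tie1/-2 control plates) against Prox1CreERT2;Tie1fl/fl,Tie2fl/fl mice (Tie1/-2-deleted plates). All groups, controls included, received 62.5 µg of 4-hydroxytamoxifen (4-OHT) a day into the stomach from P1 to P5, and ears were taken at P28. CreERT2 was driven by Prox1, the LEC transcription factor, so recombination was aimed at LECs and need not have occurred in every cell. The first plate of each of the Tie1 control and Tie1-deleted groups was labelled female and the other 6 male. The droplet libraries came from C57Bl/6j mice labelled male, 1 library after control IgG and 1 after an Ang2-blocking antibody (Ang2 Ab, 20 mg/kg every 3 days from P16 to P21). The title of the Ang2 Ab library also contains the word control, and its treatment label was followed. How many mice were pooled on a plate or in a library is not given in the sources used here.

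Tie1 and Tie2 are receptor tyrosine kinases of endothelial cells, and Tie2 is activated by angiopoietins with Tie1 as its partner. Signaling from the pair through PI3K and AKT keeps FoxO transcription factors out of the nucleus, and Ang2, a ligand made by endothelial cells, is itself a FoxO target. The 7 genes come from different protein families. Serpinb11 is a clade B serpin, Slco4a1 (OATP4A1) an organic anion transporter of the plasma membrane, and Slc9a9 (NHE9) a sodium/proton exchanger of endosomes. Esm1 (endocan) is a secreted proteoglycan known as a VEGF-induced marker of endothelial tip cells. Cpne7 is a copine, a calcium-dependent phospholipid-binding protein, and Mgll (monoacylglycerol lipase) hydrolyzes monoacylglycerols, among them an endocannabinoid. Prn is a readthrough transcript that joins Prnp (prion protein) with its neighbor Prnd (doppel).

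In GENCODE annotation of GRCm38 all 7 are protein-coding genes on the plus strand. Serpinb11 (ENSMUSG00000026327) lies at chr1:107361198-107380475, Slco4a1 (ENSMUSG00000038963) at chr2:180456245-180474867, and Esm1 (ENSMUSG00000042379) at chr13:113209659-113218098. Slc9a9 (ENSMUSG00000031129) lies at chr9:94669909-95230445, Cpne7 (ENSMUSG00000034796) at chr8:123117374-123135182, and Mgll (ENSMUSG00000033174) at chr6:88724412-88828360. Prn (ENSMUSG00000098754) at chr2:131909957-131956130 overlaps Prnp (chr2:131909928-131938429) and Prnd (chr2:131950861-131956130) on the same strand, so reads could be split among the 3 genes and its counts are uncertain.

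Promoters are shown for 3 members that rose together in the same plates. Their windows matched patterns searched for AP-1 or forkhead factors. The RefSeq table (GRCm38.p6) gave 8 windows of 250 bases before to 50 after the start for 6 of the 7 genes, and Cpne7 was not matched. Each line holds the 250 bases before the start, 5' to 3' on the plus strand, with the motif in capitals. The windows are chr1:107362064-107362313 for Serpinb11, whose RefSeq start lies inside the GENCODE gene, chr13:113209409-113209658 for Esm1, and chr6:88724162-88724411 for Mgll.
Serpinb11: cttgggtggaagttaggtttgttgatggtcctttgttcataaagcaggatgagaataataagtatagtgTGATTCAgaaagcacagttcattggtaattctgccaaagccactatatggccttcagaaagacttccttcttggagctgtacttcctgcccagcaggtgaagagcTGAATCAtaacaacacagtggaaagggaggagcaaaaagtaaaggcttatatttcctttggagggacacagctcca
Esm1: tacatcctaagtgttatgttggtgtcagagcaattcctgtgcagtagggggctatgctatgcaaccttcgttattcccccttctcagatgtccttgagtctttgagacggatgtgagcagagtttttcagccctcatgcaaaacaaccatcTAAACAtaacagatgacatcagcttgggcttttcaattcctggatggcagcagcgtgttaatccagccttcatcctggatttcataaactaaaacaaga
Mgll: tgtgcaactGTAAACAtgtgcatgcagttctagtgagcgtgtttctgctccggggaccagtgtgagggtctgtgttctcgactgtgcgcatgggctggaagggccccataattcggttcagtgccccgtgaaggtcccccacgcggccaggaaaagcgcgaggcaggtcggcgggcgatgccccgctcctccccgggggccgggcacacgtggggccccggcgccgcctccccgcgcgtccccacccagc
The capitals in Serpinb11 are 2 matches to TGANTCA, a loose AP-1 pattern that allows any central base, at -181 and -76 from the start. The central base is T in the first match and A in the second, and binding of AP-1 was not tested. Those in Esm1 are the forkhead core TGTTTA read on the minus strand, at -99, and those in Mgll the FoxO site GTAAACA, at -241, which contains the core on the minus strand.

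With both strands searched, TGANTCA was found in 7.81% of the 32851 mouse promoter windows and in windows of Serpinb11, Slc9a9 and Prn. The core TGTTTA was found in 13.4% of all windows and in Esm1, Mgll and Prn, and GTAAACA, which overlaps it, in 3.65% and in Mgll. Among the other motifs searched, CAGGAAG (ETS; 13.3% of windows) was found in Serpinb11 and Slc9a9, and TATAAA (the TATA box; 13.6%) and GGAATG (TEAD; 14.7%) in Prn. No motif of those searched was shared by all 6 genes with a window, and a match is a description of the letters.

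The 8 plates held 3048 wells, of which 3026 had at least 1000 detected genes. Clustering set aside 241 wells led by fibroblast genes and 28 led by keratinocyte genes and left 2757 LEC wells, 307 to 366 a plate, with 67251098 to 103789344 counts a plate. All 8 LEC markers checked, among them Prox1 and Flt4, reached at least 10 CPM (counts per 1000000) on every plate, and their summed level was 8099 to 9865 CPM. The wells led by fibroblast genes were shallow, at 0.108 of the median depth of their plate, and 98.8% of them also held Mmrn1, as did 100% of those led by keratinocyte genes. The summed level of 8 blood endothelial markers was 1075 to 1557 CPM, with 5 of 8 at 10 CPM or more on every plate. It was 1557 and 1372 CPM on the Tie1/-2-deleted plates against 1098 and 1221 CPM on their controls, and its part in the results was not tested. Venous, arterial and collector LEC markers were lower there, at 146 and 223 CPM against 733 and 656 CPM, 1491 and 925 CPM against 2794 and 2455 CPM, and 2940 and 1911 CPM against 4694 and 4655 CPM. The classes of LECs shifted too between the Tie1/-2 control and deleted plates, from 134 to 39 capillary-like and 136 to 20 collector-like wells, and from 111 to 185 and 48 to 139 wells in the unnamed clusters led by Kcnj8 and by Oxct1. The part of this shift in the plate sums was not tested, and levels by class are given further on. The droplet libraries gave 1259 LECs after IgG and 716 after Ang2 Ab (16436066 and 9084881 UMIs), and 1266 and 1244 blood endothelial cells. The libraries shared 5 barcodes, of which 2 were among the cells kept.

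Both targeted genes were lower where the labels put their deletion. Tie1 stood at 2216 and 2864 CPM on the Tie1 control plates, 684 and 656 CPM on the Tie1-deleted plates, 2761 and 2553 CPM on the Tie1/-2 control plates, and 747 and 457 CPM on the Tie1/-2-deleted plates. Tek was at 214 to 339 CPM on the 6 plates with intact Tie2 alleles and at 32.2 and 51.2 CPM on the Tie1/-2-deleted plates. These levels are sums over wells, in which fewer cells of a type and less RNA per cell cannot be told apart.

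Serpinb11, Slco4a1 and Esm1 were at or near 0 in every control plate and counted on every deleted plate. Serpinb11 had no count on either Tie1 control plate and 1.44 and 3.06 CPM on the Tie1-deleted plates. Against a floor of 3 counts over both control plates this was 121-fold higher, and the 95% counting interval of the ratio began at 98.2. On the Tie1/-2 control plates it had 0 and 0.0726 CPM and on the Tie1/-2-deleted plates 13.7 and 26.7 CPM, a 556-fold difference of the means with a 95% counting interval of 267 to 1370. The mean level of this serpin on deleted plates was thus 2.25 ± 1.15 CPM in the Tie1 line and 20.2 ± 9.19 CPM in the Tie1/-2 line (SD, n = 2).

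The transporter gene Slco4a1 had 0.0107 and 0.0133 CPM on the Tie1 control plates, which is 2 counts in all, and 12.6 and 3.28 CPM on the Tie1-deleted plates. The ratio of these means was 660, with a counting interval of 189 to 5647. A single well held 88.1% of the Slco4a1 counts of the second Tie1-deleted plate and another 50.5% of those of the first, and without the highest well of each plate the levels were 6.42 and 0.388 CPM. In the Tie1/-2 line the control plates had 0 and 0.124 CPM and the deleted plates 45.4 and 45.5 CPM, 731-fold higher (383 to 1295). That difference did not rest on single wells, as it was 747-fold without the highest well of each plate, there with counts scaled by plain totals.

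Esm1, the tip cell proteoglycan, was at 0.107 and 0.0267 CPM on the Tie1 control plates against 2.68 and 5.14 CPM on the Tie1-deleted plates, 58.5-fold higher. On the first of these deleted plates 1 well held 68.0% of the counts, and the fold was 33.6 without the highest well of each plate. The Tie1/-2 control plates had 0.0250 and 0.384 CPM and the Tie1/-2-deleted plates 89.9 and 54.1 CPM, a 352-fold difference. The control and deleted plates of Serpinb11, Slco4a1 and Esm1 did not overlap in either line.

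Slc9a9 and Prn were counted on all 8 plates, and their control and deleted plates overlapped in the Tie1 line but not in the Tie1/-2 line. Slc9a9, the endosomal exchanger, was at 11.5 and 13.6 CPM on the Tie1 control plates and 19.2 and 11.9 CPM on the Tie1-deleted plates, which overlapped, with a ratio of 1.24. Its Tie1/-2 control plates were lower, at 1.95 and 3.47 CPM, and its Tie1/-2-deleted plates were at 55.2 and 76.8 CPM, 24.3-fold higher. The prion readthrough gene Prn was at 4.37 and 1.88 CPM against 4.18 and 2.76 CPM in the Tie1 line, a ratio of 1.11, and 1 well held 72.5% of its counts on the first Tie1-deleted plate. In the Tie1/-2 line Prn was at 1.60 and 1.03 CPM against 22.0 and 20.2 CPM, 16.1-fold higher.

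Both genes that overlap Prn had their highest levels on the same 2 plates. Prnp was at 22.2 and 9.85 CPM on the Tie1/-2 control plates and 65.5 and 48.5 CPM on the Tie1/-2-deleted plates, and Prnd at 0.137 and 0.207 CPM against 18.1 and 16.7 CPM. The counts do not tell which of the 3 overlapping transcripts the reads came from.

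Cpne7 and Mgll were well counted in controls and higher in both lines. The copine gene Cpne7 was at 12.8 and 13.4 CPM on the Tie1 control plates against 108 and 71.2 CPM on the Tie1-deleted plates, 6.84-fold higher. In the Tie1/-2 line it was at 29.2 and 55.9 CPM against 334 and 266 CPM, 7.05-fold higher. The folds for Cpne7 in the 2 lines were close, though its level on the Tie1/-2 control plates lay above that on the Tie1 control plates. The lipase gene Mgll was at 45.2 and 48.5 CPM against 117 and 155 CPM with Tie1 deletion (2.90-fold) and at 50.7 and 60.0 CPM against 203 and 267 CPM with Tie1/-2 deletion (4.24-fold).

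In the plot of plate levels, the deleted plates lay above both controls for 5 of 7 genes in the Tie1 line, where 15.5% of the 19882 genes tested did so, and for 7 of 7 in the Tie1/-2 line, where 16.7% did. These contrasts chose the members, so the calls that follow were set by the choice and nothing is read from them. By edgeR's quasi-likelihood test on the plate sums with Benjamini-Hochberg adjustment (threshold 0.05), 7 of 7 were called higher with Tie1/-2 deletion beside 0.307% of all genes, and DESeq2 called 7 of 7 beside 1.8%. Leaving out 1 plate left 3 to 7 of them called by edgeR, 3 without Tie1/-2 control 1, and 4 of 7 were called with the replicate number as a block. With no cluster removed 5 of 7 were called, without Slco4a1 (adjusted p 0.107) and Prn (0.0585). None was called with Tie1 deletion, where 0 of 19882 genes were called in either direction (0.0%). There 853 genes had an unadjusted p under 0.05, and DESeq2 called 175 genes, with 0.708% of the genes it tested called higher. The difference between the 2 lines was not tested.

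**Figure D1:**
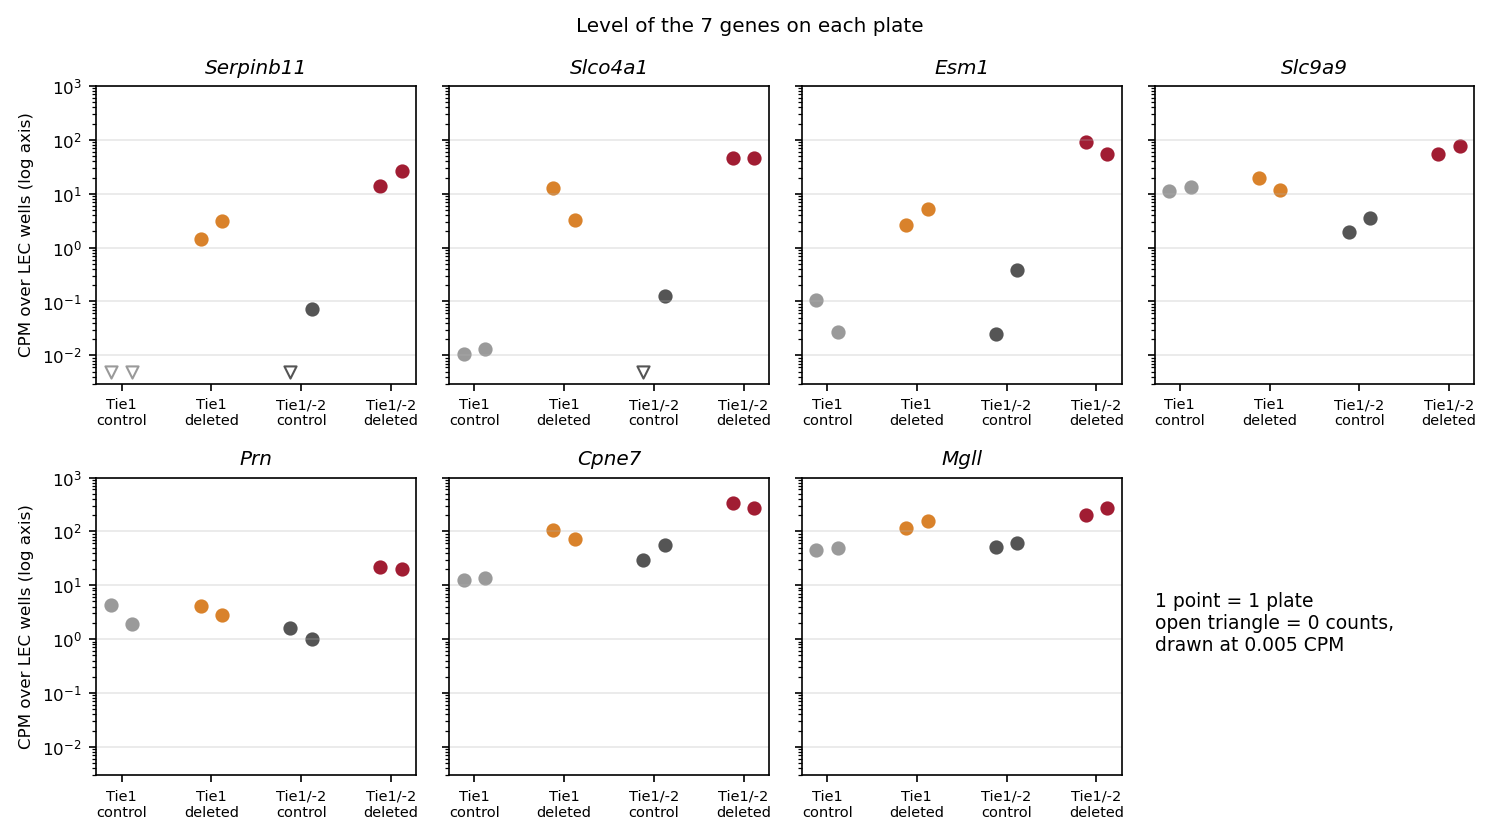
Level of each of the 7 genes in CPM (logarithmic axis) in the summed LEC wells of each of the 8 plates, 1 point per plate, grouped as Tie1 control, Tie1-deleted, Tie1/-2 control and Tie1/-2-deleted. For every gene both Tie1/-2-deleted plates lie above both of their control plates, and Slc9a9 and Prn overlap between the Tie1 control and Tie1-deleted plates. Open triangles mark plates with 0 counts.

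The summed levels came from a minority of wells for most of the genes. A well was counted as high for a gene when it held at least 20 of its counts, among wells with 50000 counts or more in all (249 to 343 a plate, 2547 in total). No control plate had a high well for Serpinb11, Slco4a1 or Esm1. At least 1 count of Esm1 was found in 8 (3.21%) and 2 (0.593%) wells of the Tie1 control plates. It was found in 2 (0.631%) and 16 (4.97%) of the Tie1/-2 control plates and in 19.2% and 38.2% of the Tie1/-2-deleted wells. Shares at 1 count differed within groups, as Cpne7 had one in 79.9% and 15.4% of wells of the Tie1-deleted plates. There 175 and 22 wells held only 1 to 4 counts of Cpne7. On the Tie1/-2-deleted plates Serpinb11 was high in 14 (4.08%) and 36 (10.7%) wells, Slco4a1 in 18 (5.25%) and 27 (7.99%), and Esm1 in 36 (10.5%) and 36 (10.7%). On the Tie1-deleted plates Serpinb11 was high in 2 and 4 wells, Slco4a1 in 5 and 2, and Esm1 in 3 and 4.

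Cpne7 and Mgll were high in more wells. Cpne7 was high in 8 (3.21%) and 4 (1.19%) wells of the Tie1 control plates and 35 (11.3%) and 29 (8.73%) of the Tie1-deleted plates. It was high in 13 (4.10%) and 18 (5.59%) wells of the Tie1/-2 control plates and in 139 (40.5%) and 156 (46.2%) of the Tie1/-2-deleted plates. Mgll was high in 9.24% and 10.1% of wells in Tie1 controls, 21.4% and 24.7% after Tie1 deletion, 9.15% and 10.6% in Tie1/-2 controls, and 30.3% and 41.4% after Tie1/-2 deletion. Cpne7 was thus the member found in most Tie1/-2-deleted wells, and Mgll the one found in most Tie1-deleted wells.

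For Slc9a9 and Prn the numbers of high wells differed more in the Tie1/-2 line than in the Tie1 line. Slc9a9 was high in 7 (2.81%) and 6 (1.78%) wells of the Tie1 control plates. On the Tie1-deleted plates it was high in 17 (5.50%) and 10 (3.01%), and these shares did not overlap, unlike the plate levels. It was high in 3 and 4 wells of the Tie1/-2 control plates and 46 (13.4%) and 77 (22.8%) of the Tie1/-2-deleted plates. Prn was high in 9 (2.62%) and 14 (4.14%) of the Tie1/-2-deleted wells and in 1 to 5 wells of any other plate. High wells carried the genes at levels far over the plate means, with median levels in them of 607 and 385 CPM for Esm1 on the Tie1/-2-deleted plates and 653 and 508 CPM for Cpne7. The corresponding medians were 275 and 248 CPM for Serpinb11, 632 and 350 CPM for Slco4a1, 320 and 302 CPM for Slc9a9, 400 and 314 CPM for Prn, and 510 and 513 CPM for Mgll.

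**Figure D2:**
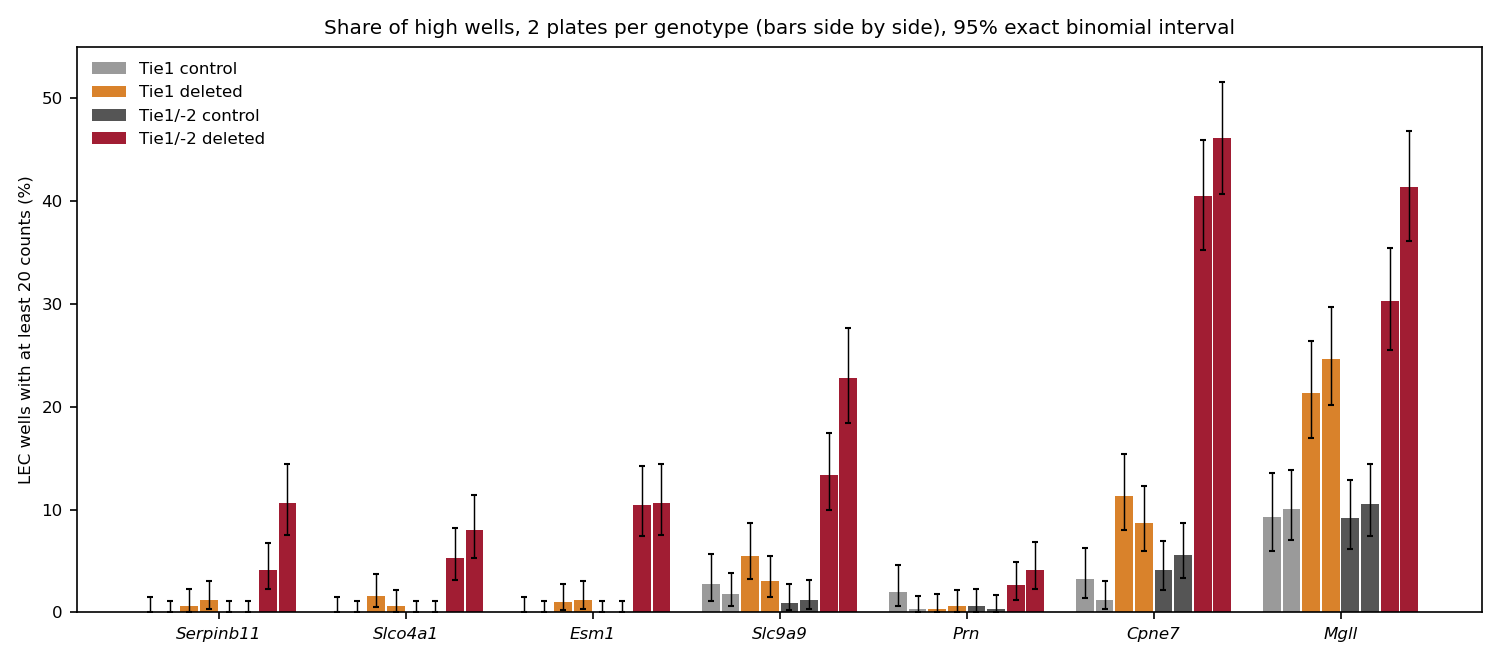
Percent of LEC wells with at least 20 counts of each gene on each of the 8 plates, among wells with at least 50000 counts. Cpne7 and Mgll reach 46.2% and 41.4% of wells on a Tie1/-2-deleted plate, whereas Serpinb11, Slco4a1 and Esm1 have no such well on any control plate.

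A single well seldom held many of the genes. On the Tie1/-2-deleted plates 66.8% and 79.3% of wells were high for at least 1 of the 7 and 9.62% and 15.98% for at least 3. The Tie1-deleted plates had 32.7% and 33.4% of wells with at least 1 and 1.62% and 0.301% with at least 3. On the 4 control plates 12.8% to 16.1% of wells had at least 1 high gene, there through Cpne7, Mgll, Slc9a9 or Prn.

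Pairs of genes were counted over the 681 Tie1/-2-deleted wells, beside the number that the product of their separate shares gives. Serpinb11 (50 wells) and Esm1 (72 wells) were high together in 15 wells, where the product gives 5.29. Serpinb11 and Slc9a9 were together in 18 wells (9.03), Serpinb11 and Mgll in 30 (17.9), and Slc9a9 and Mgll in 60 (44.1). These pairs had the highest correlations of high wells among all pairs on these plates. Some others lay below the product, as Serpinb11 and Slco4a1 in 2 wells (3.30), Slco4a1 and Mgll in 13 (16.1), and Esm1 and Prn in 2 (2.43). Cpne7 (295 wells) and Mgll (244 wells) met in 103 wells, close to the 106 given by the product. Wells of a plate share their mice and depth, and the product pools both plates, whose shares differ, so these pair counts are a description.

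Across classes of LECs the genes took different places on the Tie1/-2-deleted plates. Clusters were made without the 7 genes and without Tie1 and Tek, and they were named only from marker lists. Serpinb11, Esm1 and Mgll were, among clusters of at least 20 wells, most often high in an unnamed cluster led by Kcnj8, Mest and Aqp1 (185 wells), at 11.9%, 15.1% and 55.1% of its wells. In valve-like LECs (141 wells) they were high in 4.26%, 6.38% and 15.6%. Other clusters came closer, with Esm1 high in 14.4% of the Oxct1 cluster and Mgll in 46.9% of proliferating and 41.0% of capillary-like wells. The mean level of Esm1 was 196 and 132 CPM in the Kcnj8 cluster of the 2 plates. It was 87.8 CPM in an unnamed cluster of 72 wells with low depth, 72.1 CPM in the Oxct1 cluster and 15.7 CPM in valve-like LECs. Mgll went from 57.1 CPM in the Kcnj8 cluster of the Tie1/-2 control plates to 424 CPM in that of the deleted plates, and in valve-like LECs from 107 to 98.2 CPM.

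Slco4a1 and Prn had other places. Slco4a1 was high in 11.3% of valve-like wells, with mean levels of 87.0 and 119 CPM, in 9.35% of an unnamed cluster led by Oxct1 and Thbs1 (139 wells), in 10% of 20 collector-like wells, in 3.78% of the Kcnj8 cluster and in 0 of 39 capillary-like wells. An unnamed cluster led by Ccl2, Sh2d5 and Prnd (42 wells) had the highest share for Prn, which was high in 23.8% of its wells at 258 and 109 CPM, beside 10.3% of 29 interferon-like wells and 0 to 3.24% in the other clusters of at least 20 wells. Since Prnd leads that cluster and overlaps Prn, the Prn level there is no separate measure. Slc9a9 was high in 25.4% of the Kcnj8 cluster, 20.9% of the Oxct1 cluster and 23.1% of capillary-like wells, against 10.6% of valve-like wells.

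Cpne7 was spread over most classes. It was high in 48.1% of the Kcnj8 cluster, 44.0% of valve-like wells, 45.3% of the Oxct1 cluster, 50% of the Ccl2 cluster and 35.9% of capillary-like wells, and in 12.5% of the 32 proliferating wells. In valve-like LECs Cpne7 already stood at 99.5 and 205 CPM on the Tie1/-2 control plates, and at 356 and 308 CPM on the Tie1/-2-deleted plates. In the unnamed cluster of 72 wells with low depth Cpne7 was high in 27.8% of wells.

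**Figure D3:**
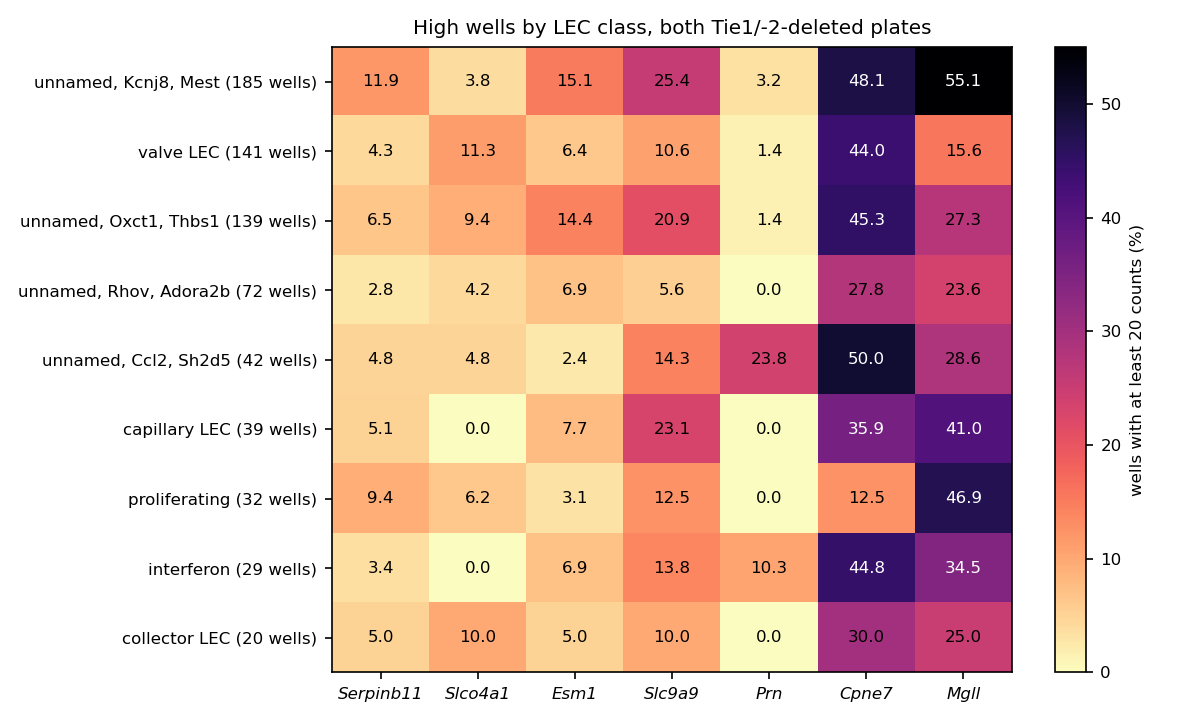
Percent of LEC wells of the 2 Tie1/-2-deleted plates with at least 20 counts of each gene (columns) in each LEC cluster of at least 20 wells (rows, with the number of wells). Wells of any depth are included. Mgll is highest in the cluster led by Kcnj8 and Mest (55.1%), Slco4a1 in valve-like LECs (11.3%) and Prn in the cluster led by Ccl2 (23.8%), whereas Cpne7 is spread over most rows.

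The relation to Tie1 was then tested within the 4 Cre-positive plates. This comparison sets wells of 1 plate against each other and not deleted against control plates. It is not independent of the choice of genes, since the same wells are part of the plate sums that chose them. Wells with Tie1 under 100 CPM (lost, 709 wells) were set against wells with 1000 CPM or more (retaining, 341 wells) of the same plate. Low Tie1 counts can also be missed counts, and the control plates had 0, 14, 9 and 1 such wells by the same rule. Median counts per well were 183523 to 282259 in lost and 186238 to 244635.5 in retaining wells of the 4 plates. The test summed counts over each kind of well per plate and used edgeR with the plate as a block over 16675 genes. No gene passed (0.0%), though 1076 had an unadjusted p under 0.05. Tie1 itself, which set the split, missed the threshold too, with a log2 fold change of -7.57 ± 0.68 (SE) and an edgeR adjusted p of 0.350. A gene that did not pass is thus no sign of equal levels in both kinds of well. DESeq2 called 221, and 0.78% of the genes it tested were called as higher in lost wells. The same split could use only the control plates with at least 5 wells of each kind, those with 14 and 9 lost wells. It gave 1 call among 15210 genes (0.00657%), Tie1 itself, which the split had set. Serpinb11, Slco4a1, Esm1 and Cpne7, 4 of the 7, were higher in lost wells on 4 of 4 plates, as were 9.39% of all genes, and 4 pairs cannot give an exact two-sided p under 0.125. By the share of high wells, Slco4a1 was higher in lost wells on 2 of the 4 plates and Cpne7 on 3. The smallest log2 difference of Cpne7 was 0.017, on the second Tie1-deleted plate.

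Esm1 differed most between the wells. On the Tie1-deleted plates it was at 4.10 CPM in lost and 0.734 CPM in retaining wells of the first and at 7.94 and 0 CPM in those of the second. On the Tie1/-2-deleted plates it was at 156 CPM against 9.54 CPM and at 96.2 CPM against 7.40 CPM. It was higher in lost wells on 4 of 4 plates, with a log2 fold change of 3.95 ± 0.74 (SE), an edgeR unadjusted p of 0.00146 and an edgeR adjusted p of 0.716, which misses the threshold, while DESeq2 gave an adjusted p of 2.7e-08. High wells for Esm1 made up 65 of 709 lost wells (9.17%) and 6 of 341 retaining wells (1.76%).

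Serpinb11 was also higher in lost wells on 4 of 4 plates. It was at 2.26 CPM against 0.138 CPM and at 4.70 CPM against 0.0453 CPM on the Tie1-deleted plates, and at 23.6 CPM against 1.38 CPM and 32.0 CPM against 19.2 CPM on the Tie1/-2-deleted plates. Serpinb11 had a log2 fold change of 3.62 ± 1.01 (SE), an edgeR adjusted p of 0.716 and a DESeq2 adjusted p of 0.0023, and 39 lost wells (5.50%) and 8 retaining wells (2.35%) were high. In capillary-like wells alone the log2 fold change of Serpinb11 was 0.09.

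Slco4a1 was at 22.9 CPM against 0.596 CPM and 4.46 CPM against 1.31 CPM in lost and retaining wells of the Tie1-deleted plates. On the Tie1/-2-deleted plates it was at 49.6 CPM against 48.7 CPM and 55.6 CPM against 17.3 CPM, which gave a log2 fold change of 1.94 ± 0.84 with an edgeR adjusted p of 0.799. The first Tie1/-2-deleted plate thus showed nearly the same Slco4a1 level in both kinds of well. On the second Tie1-deleted plate 1 well held 222 of the 223 counts of lost wells, beside 29 counts in retaining wells. The direction there rested on that well. High wells for Slco4a1 made up 27 of 709 lost wells (3.81%) and 12 of 341 retaining wells (3.52%).

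The differences of Slc9a9, Prn, Cpne7 and Mgll were at most 2 SE and did not pass the test. Their log2 fold changes were 0.33 ± 0.41, 0.94 ± 0.71, 0.28 ± 0.15 and -0.19 ± 0.16 (SE), with edgeR adjusted p of 0.964, 0.894, 0.838 and 0.93. On the Tie1/-2-deleted plates Mgll was at 148 CPM in lost and 235 CPM in retaining wells of the first and at 292 and 282.5 CPM in those of the second. Cpne7 there was at 387 CPM against 221 CPM and at 340.2 CPM against 303.7 CPM.

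On the Tie1/-2-deleted plates the retaining wells had Cpne7 and Mgll above the levels of retaining wells on control plates. The same held for Slc9a9, at 54.9 and 85.6 CPM against 11.4, 15.2, 0.998 and 3.10 CPM. It also held for Slco4a1 (48.7 and 17.3 CPM), Esm1 (9.54 and 7.40 CPM) and Serpinb11 (1.38 and 19.2 CPM). These 3 genes were between 0 and 0.380 CPM in retaining wells of the control plates. Retaining wells of the 4 control plates had Cpne7 at 15.0, 15.0, 33.7 and 59.4 CPM and Mgll at 50.7, 43.7, 50.9 and 62.0 CPM. At least 1 of the 7 genes was high in 63% and 82.4% of retaining wells and in 70.3% and 80.4% of lost wells of the Tie1/-2-deleted plates. Tek was low in those retaining wells too, at 35.8 and 142 CPM against 244 to 330 CPM in retaining wells of the control plates. Valve-like wells made up 17.9% of lost and 27.6% of retaining wells, and the part of this class difference in the results was not tested.

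**Figure D4:**
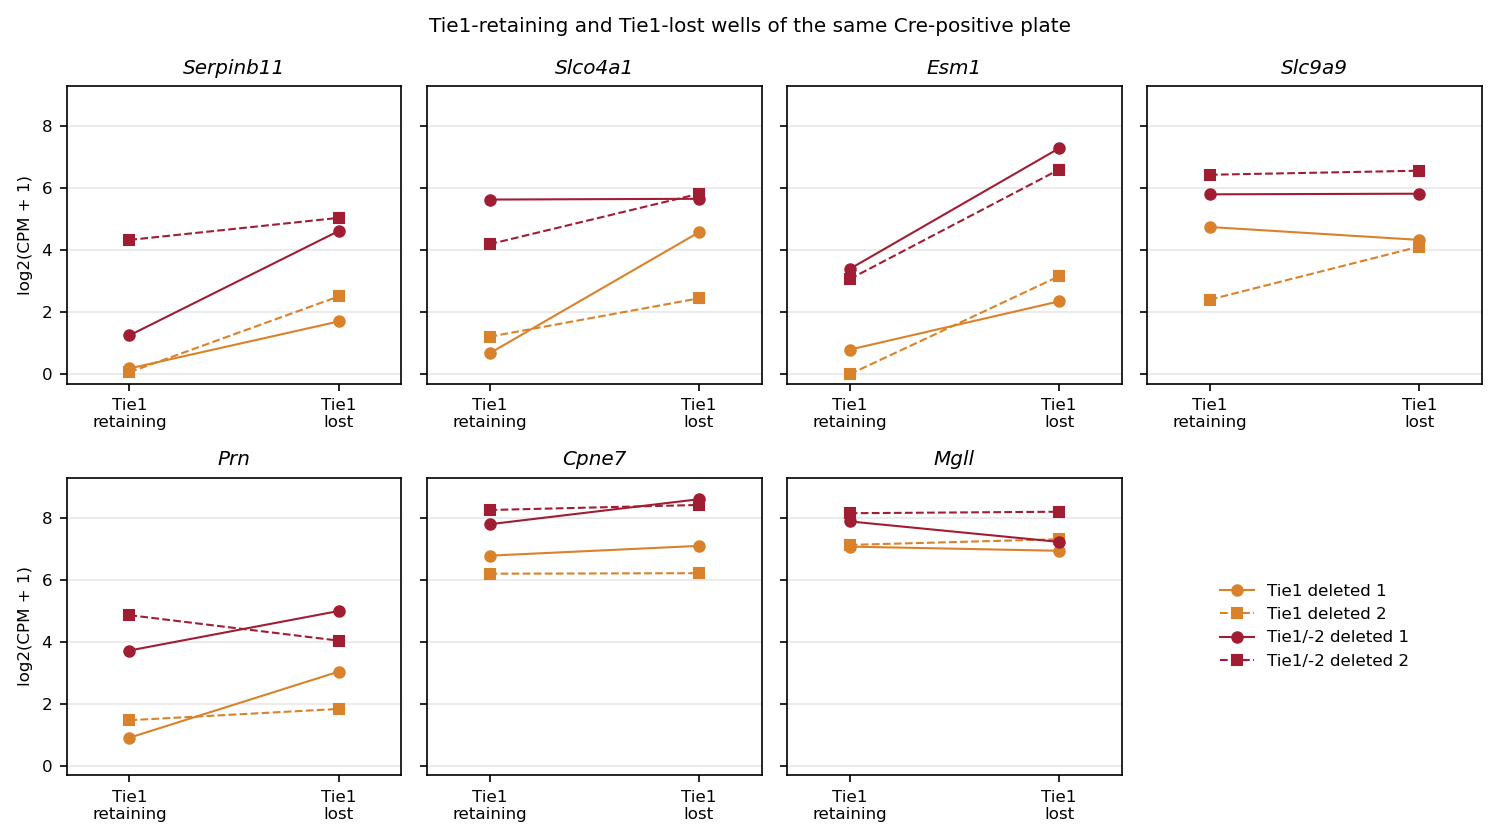
Level of each gene, as log2(CPM + 1), in the summed Tie1-retaining (1000 CPM of Tie1 or more) and Tie1-lost (under 100 CPM) wells of the 4 Cre-positive plates, with a line joining both values of 1 plate. The lines of Esm1 and Serpinb11 climb from retaining to lost wells on all 4 plates, whereas those of Mgll and Slc9a9 run in both directions.

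Blocking of Ang2 gave a readout from other mice without deletion of the receptors. There was 1 library per condition, so no test was made, and the intervals cover counting error only. In LECs all 5 members with UMIs in both libraries were higher after Ang2 Ab by a ratio above 2, where 0.95% of 10524 genes with at least 100 UMIs had a ratio of 2 or more, and where 48.4% had a ratio above 1. Esm1 itself fell below that minimum of UMIs. The share among genes counted as little as Esm1, Slc9a9 and Serpinb11 was not computed, and counting error is larger there. Esm1 had 18 UMIs after IgG (1.10 CPM) and 75 after Ang2 Ab (8.26 CPM), a ratio of 7.54 (4.46 to 13.4). Slc9a9 had 45 and 120 UMIs (2.74 and 13.2 CPM), a ratio of 4.82 (3.40 to 6.96).

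Cpne7 was at 11.7 and 30.5 CPM (192 and 277 UMIs), a ratio of 2.61 (2.16 to 3.15). Mgll was at 43.2 and 106 CPM (710 and 965 UMIs), a ratio of 2.46 (2.23 to 2.71). Serpinb11 had 56 and 71 UMIs, a ratio of 2.29 (1.59 to 3.32), and without the highest cell of each library the ratio was 2.89. The ratios of Serpinb11, Esm1 and Cpne7 moved by over 1.5 times when cells were held to 5% of mitochondrial UMIs, to 13.0, 3.10 and 3.93. Slco4a1 had 0 UMIs after IgG and 6 UMIs in 4 cells after Ang2 Ab, 3.62-fold higher against a floor of 3 UMIs. Without the highest cell it had 0 and 4 UMIs, and the counting interval of the ratio began at 1.19. Single cells weighed on Esm1 as well, since 1 cell held 23 of its 75 UMIs, and the ratio was 6.72 without the highest cell of each library.

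In capillary-like LECs (782 cells after IgG and 451 after Ang2 Ab) the ratios of Esm1, Serpinb11, Cpne7 and Mgll were above those in all LECs, and that of Slc9a9 was not. There Esm1 had 9 and 71 UMIs, a ratio of 13.6 (6.77 to 30.9), and Serpinb11 10 and 52 UMIs, a ratio of 8.95 (4.50 to 19.8). Cpne7, Slc9a9 and Mgll had ratios of 4.68, 4.60 and 3.65 in the same cells. In valve-like LECs (270 and 199 cells) Serpinb11 had a ratio of 0.634 (0.351 to 1.10) and Mgll of 0.845 (0.689 to 1.03), both with intervals that include 1, and Cpne7 of 1.36 (1.05 to 1.76). Valve-like cells were 270 of 1259 LECs after IgG and 199 of 716 after Ang2 Ab. The intervals of Serpinb11 and Mgll in valve-like and capillary-like LECs did not overlap.

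Among LECs the share with at least 1 UMI went from 1.03% to 3.77% for Esm1, from 3.18% to 12.2% for Slc9a9, from 9.93% to 21.9% for Cpne7, from 27.5% to 41.8% for Mgll, and from 1.11% to 5.03% for Serpinb11. Median depth was 11889 UMIs per LEC after IgG and 11329.5 after Ang2 Ab. As a background for free RNA, fibroblasts (median 19480 and 16501 UMIs) had Esm1 in 1.38% and 0% of cells (0 of 123, which allows up to 2.44%), so the share of 1.03% in IgG LECs is at background. Blood endothelial cells (median 8871 and 7669 UMIs) had Slc9a9 in 0.237% and 0.402% of cells, below the LEC shares. Fibroblasts held Slc9a9 at a higher level than LECs, as given further on, and were not used as its background. Cpne7 was in 1.38% and 3.25% of fibroblasts, also below its LEC shares. Serpinb11 was in 0 of 1266 blood endothelial cells after IgG, which allows up to 0.237%, and in 0.161% after Ang2 Ab. Mgll was in 46.2% and 53.7% of fibroblasts, more than in LECs, so fibroblasts cannot serve as its background. The part of free RNA in its LEC shares was not tested.

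**Figure D5:**
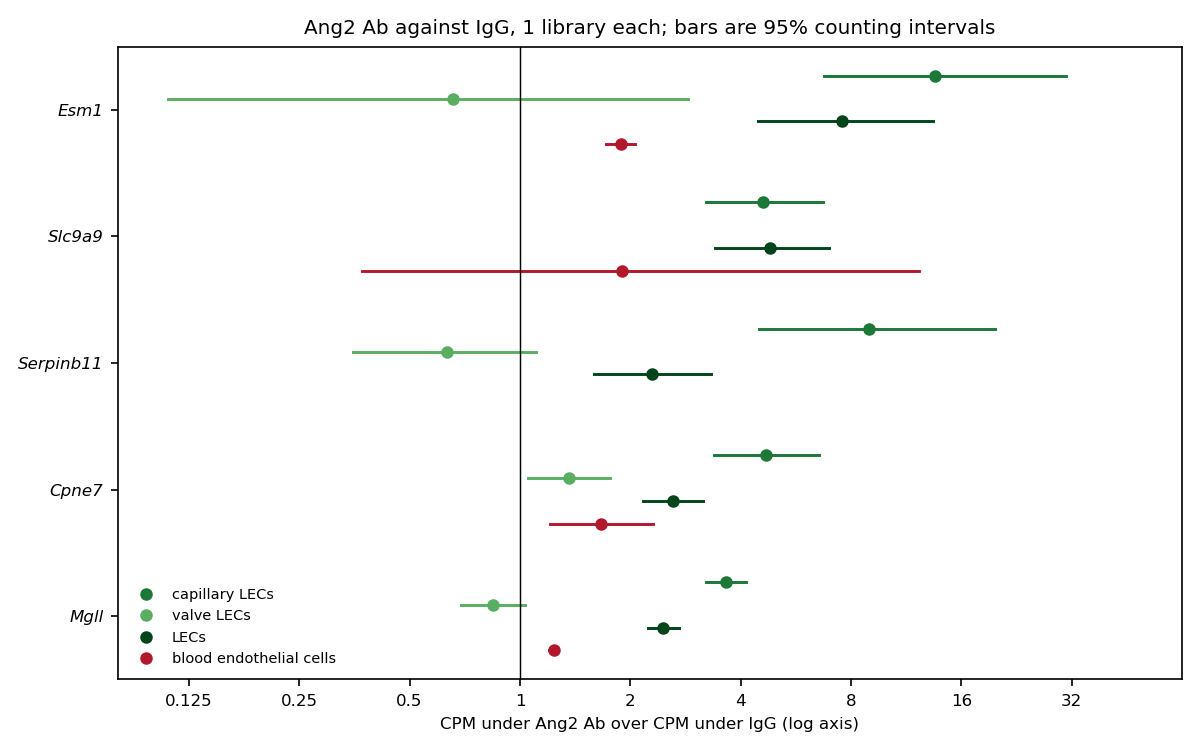
Ratio of CPM after Ang2 Ab to CPM after IgG (logarithmic axis) for 5 genes in capillary-like LECs, valve-like LECs, all LECs and blood endothelial cells, with 95% counting intervals and 1 library per condition. Sets with under 3 UMIs after IgG are left out, as is Slco4a1. In capillary-like LECs the ratios of Esm1 (13.6) and Serpinb11 (8.95) are the highest shown, and in valve-like LECs the intervals of Serpinb11 and Mgll include 1.

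In blood endothelial cells the same genes had other levels and smaller ratios. Esm1 was at 61.7 CPM after IgG and 116 CPM after Ang2 Ab, a ratio of 1.88 (1.72 to 2.06), and Mgll at 721 and 890 CPM, a ratio of 1.24. Cpne7 was at 5.43 and 9.06 CPM, a ratio of 1.67 (1.21 to 2.31). These 3 genes were the members higher after Ang2 Ab with an interval above 1, in a population where 53.7% of 10295 genes had a ratio above 1 and 0.194% a ratio of 2 or more. Slco4a1 had 13 and 9 UMIs, Slc9a9 3 and 5 UMIs, and Serpinb11 0 and 2 UMIs, too few for a difference to be detectable at this depth.

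The LEC level set against the blood endothelial level differed by gene. After IgG the ratio of LECs to blood endothelial cells was 0.0178 for Esm1 and 0.0599 for Mgll, and after Ang2 Ab it was 0.0710 and 0.119, so both remained far higher in blood vessels. Slc9a9 was higher in LECs by 11.3 after IgG and 28.6 after Ang2 Ab, and Cpne7 by 2.15 and 3.37. After Ang2 Ab Serpinb11 was 42.3-fold higher in LECs (11.3 to 356). For Slco4a1 the ratio was 0 after IgG (up to 0.246) and 0.794 after Ang2 Ab (0.233 to 2.50). In a small blood endothelial cluster led by Pgf, Apln and Kit (37 and 63 cells) Esm1 was at 71.7 and 291 CPM, a ratio of 4.06 (2.89 to 5.86). The part of blood endothelial RNA in the LEC levels of Esm1 and Mgll was not tested. Only 50 LECs after IgG and 28 after Ang2 Ab had at most 1 UMI over the 8 blood endothelial markers, and they held 12 and 10 UMIs of Mgll and 3 and 8 of Cpne7. They held none of Esm1, which at their depth allows up to 10.5 and 23.2 CPM and so tells nothing of its level.

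Few relatives of the members passed the test on the plates. Among clade B serpins other than Serpinb11, 0 of 10 tested passed edgeR's test in either direction with Tie1/-2 deletion, as did 0 of 7 Slc9 exchangers and 0 of 6 copines. In those lists 3, 2 and 0 genes had an unadjusted p under 0.05, and DESeq2 called 1 Slc9 gene as lower and no other. In the Slco family 1 of 7 passed, Slco2a1 (the prostaglandin transporter), which fell from 97.8 and 65.9 CPM to 0.750 and 1.68 CPM (log2 fold change -6.05, edgeR adjusted p 0.0024). Slco2a1 leads the collector-like cluster, which had 136 wells on the Tie1/-2 control plates and 20 on the Tie1/-2-deleted plates. Among 12 genes of monoacylglycerol and endocannabinoid metabolism Ptgs1 (a cyclooxygenase) fell, from 6.88 and 9.91 CPM to 0.0156 and 0.0186 CPM (log2 fold change -8.80, edgeR adjusted p 0.0055), with an adjusted p of 0.060 without Tie1/-2-deleted 2. Prnp and Prnd did not pass in edgeR (adjusted p 0.29 and 0.31), had unadjusted p under 0.05, and were called higher by DESeq2.

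Lists tied to what is known of the pathway gave mixed counts. Over all genes tested 0.307% were called higher with Tie1/-2 deletion and 1.21% in either direction. Of 19 VEGF-induced and tip cell genes 3 rose: Angpt2, which encodes Ang2 (log2 fold change 2.91, edgeR adjusted p 0.0045), Cd34 (2.77, adjusted p 0.049) and Pdgfb (1.58, adjusted p 0.046). DESeq2 called 5 of that list as higher and 3 as lower. By edgeR 2 fell, Igfbp3 (log2 fold change -4.92) and Nrp2 (-1.60), and the median log2 fold change of the list was 0.72 beside 0.00 over all genes tested. Cd34 and Pdgfb missed the threshold whenever 1 plate was left out (edgeR adjusted p up to 0.309 and 0.304), whereas Angpt2 and Slco2a1 passed in all 14 alternatives. Igfbp3 missed it without 3 of the 4 Tie1/-2 plates (control 1 and both deleted plates, adjusted p up to 0.122) and Nrp2 without any of the 4 (up to 0.170). Of 21 FoxO targets edgeR called 1 as higher, again Angpt2, and none as lower, with 4 at an unadjusted p under 0.05 and a median of -0.07, while DESeq2 called 1 as higher and 2 as lower. With Tie1 deletion no gene of any list was called by edgeR, while DESeq2 called 2 of the VEGF and tip cell list and 1 FoxO target as higher (4 and 1 at an unadjusted edgeR p under 0.05). Between lost and retaining wells edgeR called none, with 4 and 2 of these lists at an unadjusted p under 0.05, and DESeq2 none of either. Among the 3 nearest genes on each side of the members, 22 of 42 were tested and 1 rose, Rassf2 near Prn, from 2.92 and 5.34 CPM to 45.8 and 28.7 CPM (log2 fold change 3.17, edgeR adjusted p 0.028). Rassf2 was called without either Tie1 control plate and missed the threshold without any other plate (adjusted p up to 0.224) and with the replicate block (0.0955).

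Other genes had nearly the same profile over the plates. The 8 genes most like the mean of the standardized log2(CPM + 1) of the members over 8 plates, among 9772 genes that averaged 10 CPM or more, were Fn1, Scn3a, Lhfp, Angpt2, Tnc, Gm29233, Uchl1 and Cd36, with Pearson's r of 0.993 for the first and 0.973 for the last. Fn1 (fibronectin) was at 1045 to 1060 CPM on 3 control plates and 1008 CPM on the other, 1701 and 1792 CPM on the Tie1-deleted plates, and 3679 and 3275 CPM on the Tie1/-2-deleted plates. Angpt2 was at 339 and 389 CPM on the Tie1 control plates, 879 and 1008 CPM on the Tie1-deleted plates, 267 and 515 CPM on the Tie1/-2 control plates, and 3240 and 2648 CPM on the Tie1/-2-deleted plates. The points share the 4 genotypes and the plate depth, and the likeness is a description of the same plates that chose the members.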

How the data were processed

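The authors deposited, for every gene in each well of the 8 plates, read counts (alignment with TopHat2 2.1.1 and counting with Subread per the submitters' notes, duplicate reads removed, no normalization) and filtered UMI counts for the 2 droplet libraries (Cell Ranger 2.1.1 per the notes, 6.0.2 per the file headers). Builds named are GRCm38 and mm10. Plate tables name genes by symbol (378 wells) or Ensembl identifier (384 wells), and each group has 1 plate of each kind, so the layout is not confounded with the group. Tables were joined on 42526 genes, Prn being listed as Gm28045 in the symbol tables. All columns were mapped to samples, and 0 others were used.

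Wells with at least 1000 genes and cells with at least 500 genes and no more than 10% of UMIs from mitochondria were clustered (scanpy 1.11.5, leidenalg 0.10.2; 2000 variable genes, 30 components, 15 neighbors, resolution 1) without the members, Tie1, Tek and 12 genes of the paper. No doublets were removed. Counts of LEC wells were summed per plate and tested by the quasi-likelihood test of edgeR 4.0.16 after filterByExpr and TMM scaling on R 4.3.3, with DESeq2 1.42.0 as an alternative. CPM of plate sums are counts scaled by the TMM library size. Plain totals were used for CPM of classes, of high wells, of lost and retaining wells and of droplet cells. They were also used for levels and folds without the highest well and for counting intervals. The p-values measure only the spread between plates. The test was tried on simulated counts. Intervals are 95% and exact, and cover counting error only.

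Members and gene lists were chosen with earlier results of these data known. Text names the 7 members, Tie1 and Tek, at most 3 called genes per list (the largest log2 changes), the 8 genes most like the members, and, chosen after their values were seen, Prnp, Prnd and the leading genes of clusters. Alternatives were RLE factors, no low-count filter, the replicate number as a block, a term for the table layout, no cluster removed, other limits on wells and cells, and each plate left out. A minimum of 20 counts, LECs low in blood endothelial markers, and removal of the highest well or cell were added after the data were seen.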

Additional observations from a re-analysis of the deposited data

How the results depend on the processing

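With Tie1/-2 deletion 241 of all genes were called. The number was 1185 without a filter on low counts, 1017 with DESeq2, and 95 to 223 with 1 plate left out (95 without Tie1/-2 control 1, 110 without control 2 and 126 without deleted 2). With Tie1 deletion it was 0, and 267 without the filter, 175 with DESeq2, and 0 to 0 with 1 plate left out. Between lost and retaining wells it was 0, and 221 with DESeq2, 1 with thinned wells, 1 in capillary-like wells alone, and 0 to 0 with 1 plate left out. Members with a counting interval above 1 after Ang2 Ab in blood endothelial cells numbered 3. The mean of CPM per cell has no interval. By it 5 members had a ratio above 1 or UMIs only after Ang2 Ab, a looser rule, so these counts cannot be compared. Signs turned for some small differences. With Tie1 deletion and each plate in turn omitted, the log2 fold change of Slc9a9 ran from -0.069 (without Tie1-deleted 1) to 0.61, that of Prn from -0.33 (without Tie1 control 2) to 0.89, with -0.18 without Tie1-deleted 1, and that of Tek from -0.55 to 0.12 (without Tie1 control 2). Between lost and retaining wells it became -0.16 for Slc9a9, 0.040 for Mgll and 1.35 for Tek in capillary-like wells alone and -0.11 for Prn with lost taken as 0 counts of Tie1, and with 1 plate left out that of Slc9a9 ran from -0.14 (without Tie1-deleted 2) to 0.63. The share of Prn-positive wells differed by -0.69 points at 20 counts with Tie1 deletion. The cause was not tested for any of these. The large folds of Serpinb11, Slco4a1 and Esm1 rest on few control counts, and their Tie1/-2 log2 fold changes were 13.72, 14.89 and 11.41 without Tie1/-2 control 2.

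A replicate block by plate number left 187 genes called with Tie1/-2 deletion and 0 with Tie1 deletion (2390 and 950 at an unadjusted p under 0.05). Plates numbered alike within a line correlated in their deviations from the group means at r of 0.289 and 0.326 over 9777 genes. Within a line they also share the table layout and the number of wells and have consecutive plate identifiers, and in the Tie1 line the labelled sex. The labels state no batch and there are 2 pairs in a line, so the fit without the block was kept, and the block left 4 of the 7 members called.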

Other observations

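Smaller classes of the droplet libraries are given here by value. In proliferating cells (67 cells after IgG and 36 after Ang2 Ab, not counted among the LECs above) Esm1 had 2 and 38 UMIs, 16 of the latter in 1 cell, Serpinb11 had 1 and 15 UMIs, and Mgll had a ratio of 3.33. In collector-like LECs (207 and 66 cells, part of the LECs above) Cpne7 had 6 and 15 UMIs, a ratio of 7.99 (2.93 to 25.1), and Mgll a ratio of 1.22. Slc9a9 was also found in fibroblasts of the same libraries, at 35.1 CPM after IgG and 34.6 CPM after Ang2 Ab, a ratio of 0.986, whereas fibroblast wells had been set aside on the plates. In LECs the ratio of Tie1 was 1.06 and that of Tek 0.729, and Prnp and Prnd, the genes that Prn joins, had ratios of 1.48 and 2.00. Capillary-like blood endothelial cells had Mgll at 1144 and 1181 CPM and Esm1 at 127 and 206 CPM. With 1 library per condition none of these was tested.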
